A study of Mus musculus with 20 samples.

Results

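The cytosolic chaperonin CCT, also called TRiC, is built from 8 related subunits, and the introns of their genes were followed in nascent RNA of murine erythroleukemia (MEL) cells, a mouse line of red cell precursors that can be driven to mature with dimethyl sulfoxide (DMSO). All introns of Tcp1, Cct2, Cct3, Cct4, Cct5, Cct6a, Cct7 and Cct8 that are listed in the deposited splicing tables were taken, without regard to their values. This gave 77 introns of 7 genes, of 68794 introns listed in all. Of the 77, 76 were listed in the induced pool and 46 in a second table that counts splicing intermediates, which holds 6537 introns. Cct6a was not analysed here. Tcp1 had 1 listed intron, the second of the 2 introns of the tabulated transcript, which is a short noncoding one; that intron is also intron 2 of 11 of the coding transcript Tcp1-209. The other 76 introns lie between coding exons and make up every intron of the tabulated transcript of their gene.

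The cells were wild-type MEL cells. The uninduced group had no DMSO, and the induced group was kept in 2% DMSO for 5 days. Each group had 2 biological replicates, each sequenced on 2 PacBio instruments, which gave 4 long-read samples per group, and RNA was taken from chromatin and depleted of polyadenylated and ribosomal RNA. The tables give 1 line per intron and condition, so each group is a single pool: no value below has an error between replicates, the intervals cover counting error only, and every test compares 2 pools of libraries and not 2 conditions.

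CCT is an ATP-driven double ring that encloses newly made proteins and lets them fold, and it is best known for folding actin and tubulin. Each ring holds 1 copy of each subunit, so the subunits are needed in equal amounts: Tcp1 is the alpha subunit, Cct2 beta, Cct3 gamma, Cct4 delta, Cct5 epsilon, Cct6a zeta, Cct7 eta and Cct8 theta. All are made from multi-exon genes whose introns can be removed while the polymerase is still transcribing. The measure used for this is the co-transcriptional splicing efficiency (coSE), the fraction of the long reads covering an intron that are spliced there.

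Splice sites of some introns named below are shown first, as listed in the deposited table, 5′ to 3′ on the strand of the gene, with the intron's outermost bases in capitals. Sites are listed for only 46 of the 77 introns. Of the 13 introns of Cct4 and the 14 of Cct8, only intron 4 of each has listed sites. A higher deposited score was read as a stronger site. At the 5′ splice site the first 3 bases are exonic. Cct2 intron 6, Cct5 intron 5 and Cct5 intron 4 are shown for their coSE, and Cct5 introns 3, 7 and 10 for their intermediates. Cct3 intron 3 is shown as the least spliced intron of that gene and Cct3 intron 1 as one of several spliced in all reads. Tcp1 intron 2 is the only listed intron of its gene. Cct8 intron 4 and Cct7 intron 11 are shown for unusual sites, these 2 picked after their sequences were seen.
Cct2 intron 6, 5′ site, score 0.35: tggGTtggt
Cct7 intron 11, 5′ site, score 2.16: cagGTggtt
Cct5 intron 4, 5′ site, score 3.14: agtGTgcgt
Cct8 intron 4, 5′ site, score 3.32: gagGCaagt
Cct3 intron 3, 5′ site, score 5.64: aagGTtgga
Cct3 intron 1, 5′ site, score 7.68: tcaGTgagt
Tcp1 intron 2, 5′ site, score 8.07: ggtGTaagt
Cct5 intron 7, 5′ site, score 8.24: gagGTagga
Cct5 intron 5, 5′ site, score 8.4: aaaGTgagt
Cct5 intron 3, 5′ site, score 8.85: ttgGTaaga
Cct5 intron 10, 5′ site, score 11.45: acgGTgagt
Cct2 intron 6 had the weakest and Cct5 intron 10 the strongest 5′ site of the 46 CCT introns with a score. Cct8 intron 4 starts with GC in place of GT, as did 0.658% of the 6537 scored introns.

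The 3′ splice sites of these introns, with that of Cct2 intron 2 added, end in 3 exonic bases after the AG in capitals. The weakest and strongest of the 46 are those of Cct2 intron 2 and Cct3 intron 1.
Cct2 intron 2, 3′ site, score 4.68: tttttcttttataatttaAGtcg
Cct2 intron 6, 3′ site, score 5.98: cttctgtttggttttattAGttc
Cct5 intron 4, 3′ site, score 7.17: aagttgtgtgttttcatcAGgat
Cct5 intron 3, 3′ site, score 7.28: gtctgctctgctgcttgcAGtct
Cct5 intron 7, 3′ site, score 7.9: tctctgatgcatcctgacAGctg
Cct8 intron 4, 3′ site, score 8.05: atttttatatcatggtttAGgta
Cct3 intron 3, 3′ site, score 9.09: acacttttgctttttcttAGatg
Tcp1 intron 2, 3′ site, score 9.38: tattccttcatatttcttAGgat
Cct5 intron 5, 3′ site, score 11.65: tgatcttcctctccccatAGaaa
Cct7 intron 11, 3′ site, score 12.1: gtgactctcctctctttcAGgga
Cct5 intron 10, 3′ site, score 12.47: tgctgtgttttgtttttcAGata
Cct3 intron 1, 3′ site, score 15: tgtgtttttgtctgttttAGgtc
Cct2, Cct5 and Cct8 lie on the minus strand and Tcp1, Cct3, Cct4 and Cct7 on the plus strand of GRCm38. Introns whose positions are not given with their values further on are Cct2 intron 2 (chr10:117062883-117062975), Cct3 intron 1 (chr3:88297267-88299341), Cct5 intron 3 (chr15:31595844-31597410), Cct7 intron 11 (chr6:85467786-85468052) and Cct8 intron 4 (chr16:87490666-87491301). The 2 introns of most interest for their coSE thus differ in their sites. Cct2 intron 6 has low scores at both ends. Cct5 intron 5, of 87 nt, has a 5′ site of 8.4, somewhat below the CCT median of 9.24, and a strong 3′ site. Over the 46 introns the median scores were close to those of all 6537 scored introns, at 9.24 against 8.78 for the 5′ and 8.64 against 8.70 for the 3′ site. GTAAGT, the intron start that pairs best with U1 snRNA, opened 6.52% of the CCT introns and 14.3% of all, and GTGAGT 17.4% and 15.6%, counted on the strand of the gene as the first intronic bases.

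Depth limits what these introns can show. The median CCT intron was covered by 18 uninduced and 8 induced reads, against 3 and 2 for all introns. A read was counted at each intron it covers; such counts, called observations below, came to 2110 and 748 for the CCT genes and to 416379 and 279371 for all introns. The erythroid marker genes, 11 of 11 listed, went from 665 to 7498 observations, and of the markers of other blood cells Pf4 had 80 and 10, while Mpo, Elane, Itgam and Cd3e were at 0.

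In the uninduced pool, most CCT reads were already spliced. Over the 71 introns with at least 10 reads, coSE had a median of 0.905 and ranged from 0.6 at Cct8 intron 9 (6 of 10 reads) to 1 at 20 introns (28.2%). The same figures over all 9982 introns with that depth were a median of 0.933, with 37.0% at 1 and 10.8% under 0.6. No CCT intron at this depth was under 0.6 in the uninduced pool. In the induced pool, 27 CCT introns of 6 genes had at least 10 reads, with a median of 0.857 and a range from 0.364 to 1. Of these, 7 were at 1 (25.9%, against 43.1% of 6333 introns) and 4 were under 0.6 (14.8%, against 9.71%). With all reads added together, coSE of the CCT genes was 0.894 before and 0.785 after induction, while that of all introns was 0.861 in both. The difference of the medians depended on the depth minimum. With at least 20 reads they were 0.912 uninduced and 0.909 induced, almost level, but over unlike sets of introns. The induced introns with that depth were only Cct5 introns 1 to 6 and Cct3 intron 3, while the uninduced ones came from more genes. Without a minimum the medians were 0.900 and 0.826.

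coSE of most CCT introns was lower in the induced than in the uninduced pool. The study's long-read groups ask whether splicing differs before and after induction, and 27 CCT introns had at least 10 reads in both pools. Of these, 20 were lower in the induced pool (74.1%), 4 higher and 3 equal, where 34.8% of the 4403 introns of the whole table at that depth were lower. The median difference, induced minus uninduced, was -0.0625 for the CCT introns and 0 for all introns. None of the 27 passed the threshold of 0.05 by Fisher's exact test with Benjamini-Hochberg adjustment over the 4403 introns, and none by the chi-square test, where 1.61% of all introns were called by Fisher's exact test. An unadjusted Fisher's exact p under 0.05 was found at 2 of the 27 (7.41%), against 7.97% of all introns. Both were lower, as were 4.38% of all introns at that p. Lower values were thus the rule among these introns, while the share of single introns with a small p was near that of all introns.

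Since the introns of a gene share reads, the 20 introns are not independent. With no depth minimum, 45 of 76 CCT introns were lower (59.2%), 20 higher and 11 equal, against 18.2% lower of 42074 introns, of which 22592 were equal. In that test 0 CCT introns were called by Fisher's exact test with Benjamini-Hochberg adjustment, against 0.0856% of all, and 7 had an unadjusted Fisher's exact p under 0.05 (9.21%, against 1.75%). All 7 were lower, as were 0.884% of all introns at that p, but CCT introns were deeper than most, and an intron with very few reads cannot reach such a p. Without Cct5, the gene with the most reads, 15 of 18 were lower at the minimum of 10 reads. With at least 20 reads in both pools, 4 of 7 were lower, and these 7 were Cct5 introns 1 to 6 and Cct3 intron 3.

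Taken gene by gene, with the reads of all introns added, 7 of 7 genes had a lower coSE in the induced pool. Of the 1125 genes with at least 50 observations in both pools, among them 6 of these 7, 37.4% were lower, and the median gene difference was 0.0162. Of those 6, Cct4 had the largest difference, from 0.841 to 0.542, followed by Cct8, from 0.776 to 0.591. Only 7 of the 1125 genes had a difference as low as that of Cct4, itself included, and 22 one as low as that of Cct8. Tcp1, with 36 and 13 reads at 1 intron and so outside the 1125, went from 0.972 to 0.769. Cct2 went from 0.871 to 0.787, Cct5 from 0.898 to 0.824 and Cct7 from 0.937 to 0.887. Cct3 was nearly level, at 0.933 and 0.916, and by the mean over its introns its difference was 0.00503, on the other side of 0. Gene values have no test, since observations of a gene share reads.

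**Figure D1:**
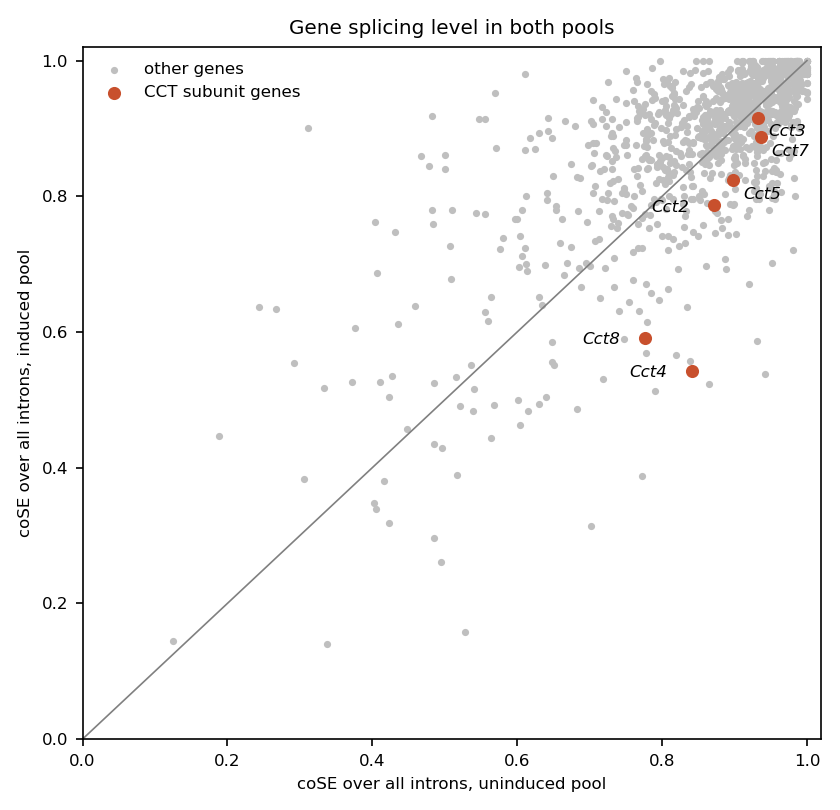
Each point is a gene with at least 50 observations in both pools, placed by its coSE (fraction of reads spliced, all introns added) in the uninduced pool (x axis) and the induced pool (y axis); the line marks equal values, and the 6 CCT genes with enough reads are in red. All 6 lie under the line, Cct4 (0.841 and 0.542) and Cct8 (0.776 and 0.591) farthest, with Cct3 (0.933 and 0.916) next to it.

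Cct5, the epsilon subunit, had the most reads of the 7 genes, 812 and 221 observations at 10 introns, and 6 of the 10 were lower in the induced pool, the first of them intron 4 and the last intron 10. Its first 3 introns were almost fully spliced in both pools: intron 1 in 113 of 118 uninduced and 31 of 31 induced reads, intron 2 in 114 of 116 and 30 of 30, and intron 3 in 114 of 115 and 27 of 27. The next 2 introns had lower values in the induced pool. Cct5 intron 5 (GRCm38 chr15:31594247-31594333, 87 nt, minus strand) had 89 of its 99 uninduced reads spliced, coSE 0.899 (Wilson 95% interval 0.824 to 0.944). Of its 27 induced reads 17 were spliced, coSE 0.630 (interval 0.442 to 0.785). The difference was -0.269 (Newcombe 95% interval -0.462 to -0.0971), with the smallest Fisher's exact p of any CCT intron, 0.00185, and a Benjamini-Hochberg adjusted p of 0.0936 over the 4403 introns. The adjusted p depended on how many introns were tested: it was 0.0384 at a minimum of 20 reads, 0.223 at 5 reads and 0.802 without a minimum. An annotated Cct5 transcript keeps this intron within an exon, and 1 of the 2 transcripts spanning it has it spliced out, so an unspliced read may be either a transcript not yet spliced or one that retains the intron.

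Cct5 intron 4 (chr15:31594527-31595644, 1118 nt) has a weak 5′ site. Of 110 uninduced reads 82 were spliced (0.745), and of 31 induced reads 18 (0.581, interval 0.408 to 0.736), an unadjusted Fisher's exact p of 0.115. Cct5 intron 7 (chr15:31593053-31593514) went from 47 of 59 reads to 12 of 19. Cct5 intron 10 (chr15:31591056-31592284), the last, had 20 of 30 and 3 of 8, the lowest coSE of the gene in the uninduced pool, although its 5′ and 3′ sites score high. Cct5 intron 6 (79 of 86 and 20 of 22) and intron 9 (33 of 37 and 12 of 14) were close to level, and Cct5 intron 8 (38 of 42 and 12 of 12) had the largest higher value in the induced pool of any CCT intron with at least 10 reads in both, a difference of 0.0952 (interval -0.154 to 0.221). The intervals of all these but intron 5 include 0.

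**Figure D2:**
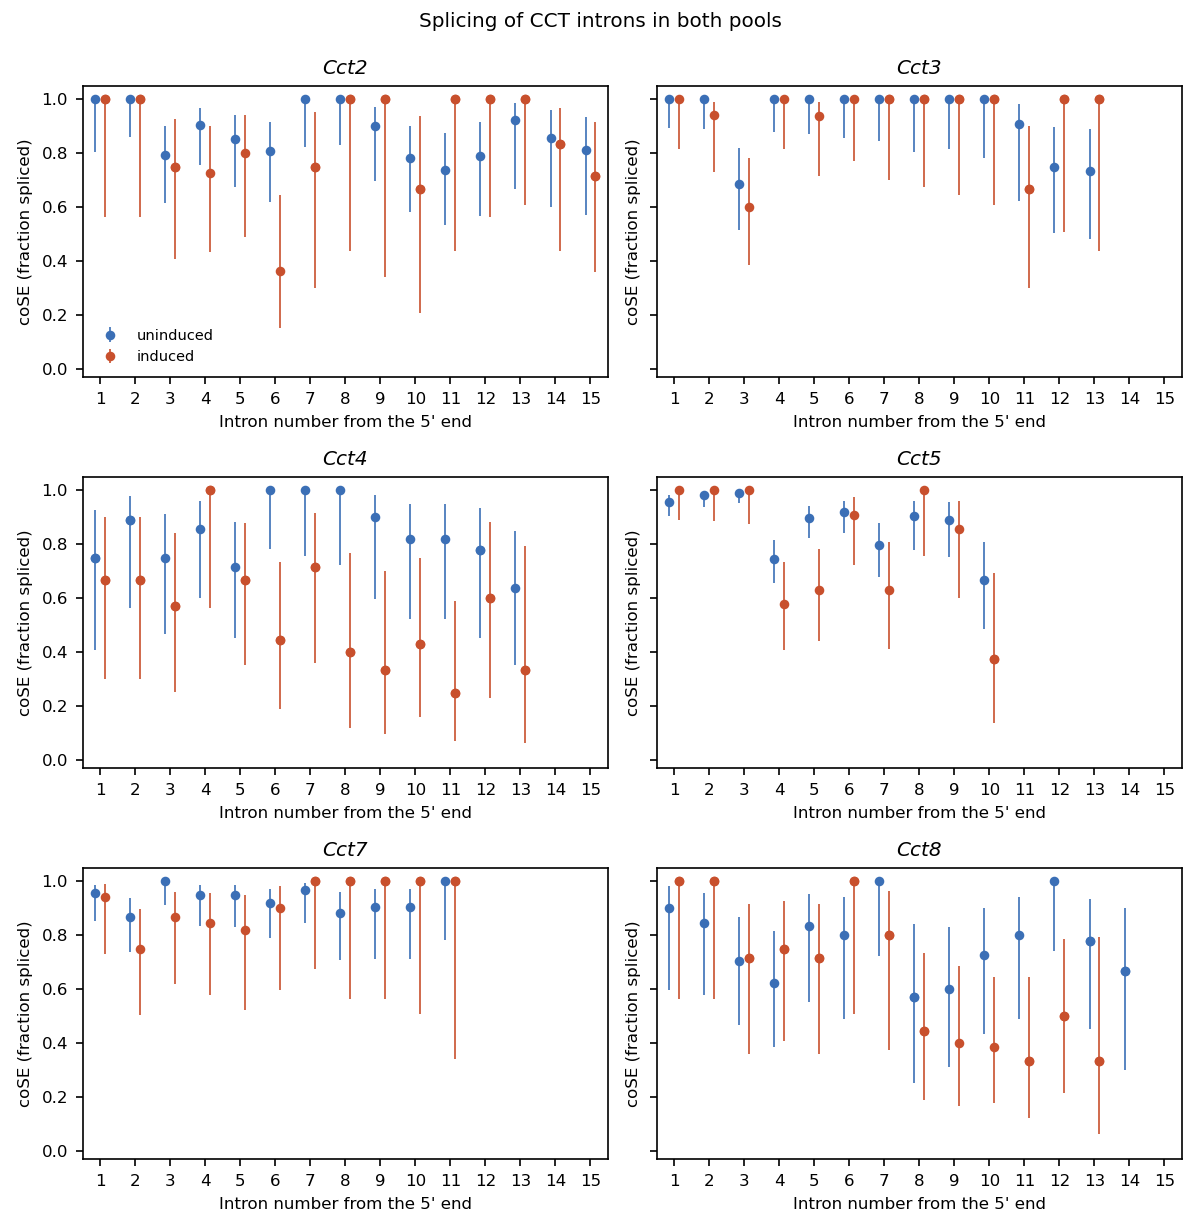
coSE (y axis, fraction of reads spliced) at each intron, numbered from the 5′ end (x axis), of the 6 CCT genes with more than 1 listed intron, in the uninduced (blue) and induced (red) pools, with Wilson 95% intervals for counting error. The induced values lie below the uninduced ones at Cct5 introns 4, 5 and 7, Cct4 introns 6 to 11 and Cct8 introns 8 to 13, while most Cct3 introns are at 1 in both pools. Open symbols mark values from fewer than 10 reads, among them all induced values of Cct4 and those of Cct8 outside introns 9 and 10.

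Cct4, the delta subunit, had the largest difference of the 7 genes, on few reads. Its 13 introns had 8 to 14 uninduced and 3 to 9 induced reads, so none reached the minimum in both pools. Of the 13, 12 were lower in the induced pool and only intron 4 (12 of 14 and 5 of 5) was higher. Cct4 intron 6 (chr11:22997155-22997602) was spliced in 14 of 14 uninduced reads and 4 of 9 induced reads, an unadjusted Fisher's exact p of 0.00374 in the test without a minimum. Intron 8 had 10 of 10 and 2 of 5 reads spliced, intron 9 had 9 of 10 and 2 of 6, and intron 11 had 9 of 11 and 2 of 8. Each of these 4 had an unadjusted Fisher's exact p under 0.05 without a minimum and an adjusted p of 1. Introns 6 to 11, a stretch of 5012 nt picked after the values were seen, were together spliced in 63 of 68 uninduced and 18 of 42 induced observations, a coSE of 0.926 and 0.429. The first 5 introns of Cct4 were at 0.789 and 0.697, and the last 2 at 0.700 and 0.500, so all 3 stretches were lower in the induced pool. No single Cct4 intron had more than 6 unspliced induced reads, so the 38 unspliced observations of the gene could come from as few as 6 reads.

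Cct8, the theta subunit, had most of its lower induced values towards its 3′ end. Its 14 introns had 6 to 17 uninduced and 0 to 13 induced reads, with none at intron 14 of the induced pool. Introns 1 to 7 were spliced in 70 of 88 uninduced and 34 of 41 induced observations, a coSE of 0.795 and 0.829. Introns 8 to 12 (chr16:87485745-87487533), also picked after their values were seen, were spliced in 37 of 49 and 20 of 49 observations, a coSE of 0.755 and 0.408. Within that stretch, Cct8 intron 12 (89 nt) went from 11 of 11 to 4 of 8 reads, an unadjusted Fisher's exact p of 0.0181 without a minimum. Intron 10 (81 nt) went from 8 of 11 to 5 of 13 and intron 9 (74 nt) from 6 of 10 to 4 of 10; these 2 were the only Cct8 introns with at least 10 reads in both pools, with adjusted p of 0.913 and 1 by Fisher's exact test. The reads of Cct8 were also spread differently in the pools: introns 8 to 12 had 49 observations in each pool, while introns 1 to 7 had 88 and 41. As few as 8 reads could hold the 38 unspliced induced observations of Cct8. Cct8 intron 4, with the GC start, was spliced in 10 of 16 uninduced and 6 of 8 induced reads, a coSE of 0.625 and 0.75.

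Cct2, the beta subunit, had 319 and 89 observations at 15 introns, of which 8 were lower, 4 higher and 3 equal. Cct2 intron 6 (chr10:117060851-117061297, 447 nt, minus strand), with the weakest 5′ site of the set, had the lowest induced coSE and the largest difference of the 27 introns tested. Of 26 uninduced reads 21 were spliced (0.808, interval 0.621 to 0.915), and of 11 induced reads 4 (0.364, interval 0.152 to 0.646). The difference was -0.444 (interval -0.682 to -0.106), with a Fisher's exact p of 0.0183 and an adjusted p of 0.402. Of the introns around it, intron 4 went from 29 of 32 to 8 of 11 reads, intron 5 from 23 of 27 to 8 of 10 and intron 7 from 18 of 18 to 3 of 4. Cct2 intron 2, with the weakest 3′ site of the set, was spliced in all reads of both pools, 24 and 5. In the uninduced pool the lowest value of Cct2 was at intron 11, 17 of 23 reads (0.739). That intron was higher in the induced pool, at 3 of 3 reads, as was intron 12, at 15 of 19 and 5 of 5. Intron 6 was not set apart before induction, when introns 3, 10, 11 and 12 of the gene had lower values.

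Cct3, the gamma subunit, had the highest induced coSE of the 7 genes, and 1 short intron held much of what was unspliced. In each pool, 9 of its 13 introns had no unspliced read. Intron 1 was spliced in 33 of 33 and 17 of 17 reads and intron 4 in 28 of 28 and 17 of 17. On few induced reads, intron 12 (12 of 16 and 4 of 4) and intron 13 (11 of 15 and 3 of 3) were higher in the induced pool. Cct3 intron 3 (chr3:88300851-88300928, 78 nt) was spliced in only 22 of 32 uninduced reads (0.688, interval 0.514 to 0.820) and 12 of 20 induced reads (0.6, interval 0.387 to 0.781). It alone held 10 of the 19 unspliced uninduced observations of the gene and 8 of the 12 induced ones. Of the 6 annotated transcripts that span it, 2 have it as an intron and 3 hold it inside an exon. The difference at intron 3 was -0.0875 (interval -0.339 to 0.163; Fisher's exact p 0.561), so its low value was a feature of both pools.

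Cct7, the eta subunit, had 363 and 106 observations at 11 introns, 6 of them lower, 4 higher and 1 equal. The lowest coSE with at least 10 reads was at intron 2 in both pools, 39 of 45 uninduced (0.867) and 12 of 16 induced reads (0.75). Cct7 intron 3 was spliced in 40 of 40 and 13 of 15 reads, a difference of -0.133 (interval -0.379 to -0.00338) with a Fisher's exact p of 0.0707 and an adjusted p of 0.739. Intron 1, of 6987 nt and the longest of the set, was spliced in 44 of 46 and 16 of 17 reads. Cct7 intron 11, whose 5′ site scores 2.16, was spliced in all 14 and 2 reads. The last 5 Cct7 introns had no unspliced read in the induced pool, at 2 to 8 reads each.

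Tcp1, the alpha subunit, is known here by 1 intron (chr17:12917884-12918042, 159 nt). Of 36 uninduced reads 35 were spliced (0.972, interval 0.858 to 0.995), and of 13 induced reads 10 (0.769, interval 0.497 to 0.918). The difference was -0.203 (interval -0.476 to -0.0155), with a Fisher's exact p of 0.0520 and an adjusted p of 0.637. Of the 4 coding transcripts that span this intron, 2 have it.

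Fewer of the intron observations came from CCT genes in the induced pool, in 7 of 7 genes. As a share of all observations of its pool, the induced value was 0.406 times the uninduced one for Cct5, 0.416 for Cct2, 0.435 for Cct7 and 0.538 for Tcp1. Cct3, at 0.753, Cct4, at 0.853, and Cct8, at 0.912, were closer to level. Of the 1125 genes, 40.2% had a lower share in the induced pool, and the median ratio was 1.14. Between 6.31% and 7.29% of those genes had a ratio as low as those of Cct5, Cct2 and Cct7. Cct4 and Cct8, with the largest coSE differences of the 6 deeper genes, were therefore those whose share was closest to level. These are bulk samples, in which fewer cells making an RNA and less RNA per cell cannot be told apart, and a share also depends on how many introns a read covers.

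**Figure D3:**
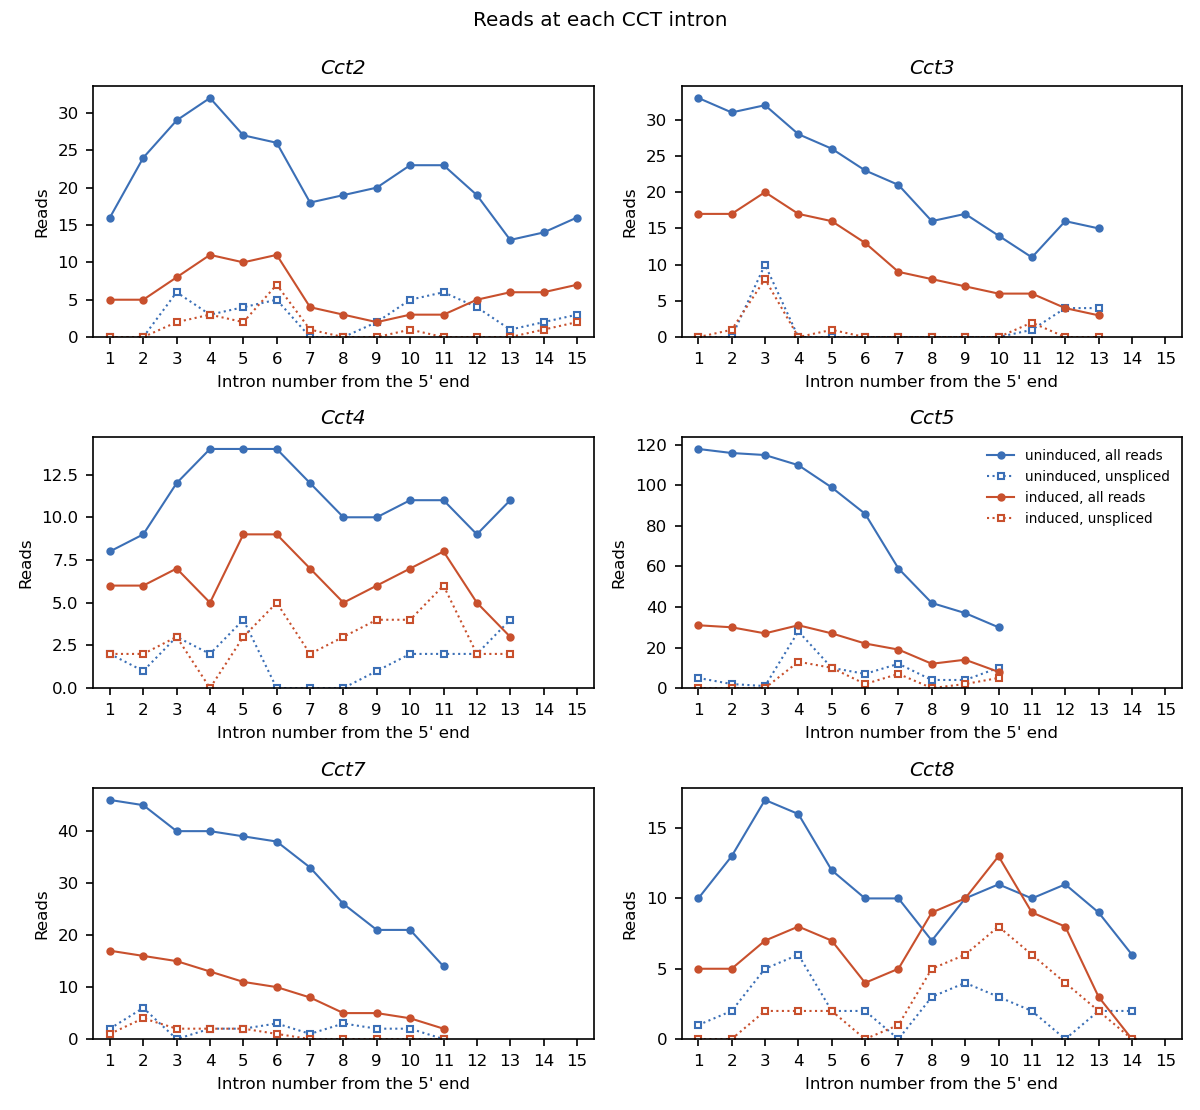
Reads covering each intron (filled symbols, solid lines) and the unspliced reads among them (open symbols, dotted lines), by intron number from the 5′ end (x axis; y axis in reads, scaled separately for each gene), in the uninduced (blue) and induced (red) pools. Cct5 goes from 118 uninduced reads at intron 1 to 30 at intron 10, and the induced reads of Cct8 peak at intron 10, with 13, of which 8 are unspliced.

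Reads thinned out towards the 3′ end of most CCT genes. Cct5 had 349 uninduced observations at its first 3 introns and 109 at its last 3, Cct7 131 and 56, Cct3 96 and 42, Cct2 69 and 43, and Cct8 40 and 26. Cct4 was level, at 29 and 31. Such a decline was found in 85.1% of the 457 genes with at least 20 observations at both ends before induction and in 89.9% of 207 after it. coSE at the last 3 introns was lower than at the first 3 in 61.1% and 58.5% of these genes. In Cct5 it was 0.977 at the first and 0.835 at the last 3 introns before induction, and 1 and 0.794 after it. Cct2 was at 0.913 and 0.860 before induction and 0.889 and 0.842 after it, and Cct4 at 0.793 and 0.742 and then 0.632 and 0.375. Cct8 was higher at its last 3 introns before induction, at 0.800 and 0.846, and lower after it, at 0.882 and 0.455. Cct3 and Cct7 were lower there before induction, at 0.896 and 0.786 and at 0.939 and 0.929, and higher after it, at 0.833 and 0.846 and at 0.854 and 1. The last 3 introns were thus lower in 5 of 6 CCT genes before and 4 of 6 after induction, but after induction the other 5 genes had fewer than 20 observations at 1 end or both, and Cct5 alone (88 and 34) had the depth of the background. In the genes whose reads thinned out, the position of an intron and its depth moved together, and the part of either in the values above was not tested.

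CCT introns are short, with a median of 636 nt and a range from 74 to 6987, against a median of 1226 nt for all. The 9 CCT introns of up to 100 nt had, with their reads added, a coSE of 0.861 uninduced and 0.625 induced, against 0.791 and 0.736 for all introns of that length. The 25 CCT introns of over 100 and up to 500 nt were at 0.902 and 0.760 and the 17 of over 500 and up to 1000 nt at 0.859 and 0.798, so the shortest introns were not set apart before induction. The 26 CCT introns over 1000 nt were at 0.912 and 0.860, against 0.914 and 0.925. As a description across introns that share reads within genes, Spearman's rho of coSE with length was 0.300 over 71 uninduced and 0.594 over 27 induced CCT introns, against 0.372 and 0.383 over all. For the score of the 5′ site rho was 0.0189 over 46 uninduced and 0.340 over 25 induced CCT introns, against 0.0468 and 0.0583 over all. For the 3′ site it was 0.219 and 0.204, against 0.112 and 0.0822. Of Cct4 and Cct8, the introns with a score include only intron 4 of each before induction and none at this depth after it. The coSE of the same introns in the 2 pools had a rho of 0.805 over 27 CCT introns, against 0.565 over 4403.

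Of the 77 introns, 8 lie inside an exon of an annotated transcript: Cct2 intron 5, Cct3 introns 2, 3 and 13, Cct4 intron 9, Cct5 intron 5 and Cct8 introns 11 and 12. With their reads added, these were at 0.868 uninduced and 0.650 induced, and the other 69 at 0.897 and 0.806. The lower induced value was thus present in both sets. No CCT intron holds an annotated snoRNA.

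Most of the splicing intermediates of the CCT genes were seen in Cct5, the gene with the most reads. By an intermediate is meant an RNA whose 5′ splice site has been cut while its exons are still apart, and the deposited fraction NIC is the share of intermediates among intermediates plus spliced reads. The 46 CCT introns of the uninduced pool had 50 intermediates among 1351 reads, 3.70% (Wilson 95% interval 2.82% to 4.85%), and the 14 of the induced pool had 11 among 162, 6.79% (interval 3.83% to 11.7%). All introns were at 2.71% and 4.35%. Cct5 held 31 of the 50 and 8 of the 11, with 690 of the 1351 reads and 96 of the 162, and without it the shares were 2.87% and 4.55%. By gene, the uninduced share was 4.49% for Cct5, 4.32% for Cct2 (7 of 162 reads), 6.25% for Tcp1 (2 of 32), 2.41% for Cct3 and 2.10% for Cct7, so Cct5 was not above all other CCT genes. Cct4 and Cct8 were hardly covered: each had 1 listed intron before induction, with 0 intermediates among 9 and 6 reads, and none after it. At least 1 intermediate was seen at 41.3% of the CCT introns and 36.2% of all introns before induction, and at 28.6% and 37.8% after it.

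Cct5 intron 7 had the most intermediates of any CCT intron, 12 among 54 uninduced reads, a NIC of 0.222 (Wilson 95% interval 0.132 to 0.349), and 4 among 11 induced reads, 0.364 (interval 0.152 to 0.646), values whose intervals overlap. Cct5 intron 10 had 4 among 19 uninduced reads (0.211), intron 8 had 4 among 40 (0.100) and intron 6 had 3 among 70. By contrast Cct5 introns 1 and 2 had none among 102 and 103 uninduced reads, which allows a share of up to 2.94% and 2.91%. Outside Cct5, only Cct2 intron 5 had at least 3 intermediates, 3 among 18 uninduced reads (0.167). Low coSE and many intermediates did not always go together: of the 2 Cct5 introns with the lowest uninduced coSE, intron 10 had 4 among 19, while intron 4 had 2 among 82.

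**Figure D4:**
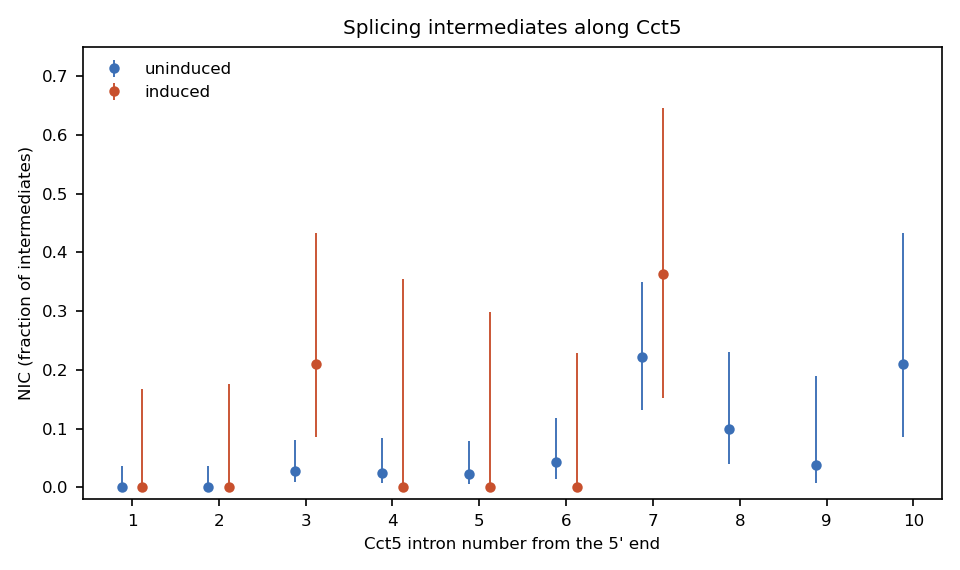
NIC (y axis, fraction of intermediates among intermediates plus spliced reads) at each Cct5 intron, numbered from the 5′ end (x axis), in the uninduced (blue) and induced (red) pools, with Wilson 95% intervals for counting error; introns 8 to 10 have no induced value. Intron 7 is highest in both pools (0.222 and 0.364), and intron 3 goes from 0.0283 uninduced to 0.211 induced.

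NIC was compared between the pools at the 14 CCT introns listed in both, of 2039 introns in all. It was higher in the induced pool at 4, lower at 3 and 0 in both pools at 7. None was called by Fisher's exact test with Benjamini-Hochberg adjustment, nor by the chi-square test, against 0.0981% of the 2039, and 2 of the 14 had an unadjusted Fisher's exact p under 0.05 (14.3%, against 1.67%). Both were higher in the induced pool, as were 1.23% of all at that p. Cct5 intron 3 had 3 intermediates among 106 uninduced and 4 among 19 induced reads, a NIC of 0.0283 and 0.211 (Fisher's exact p 0.0102, adjusted p 1). Cct7 intron 2 had 0 among 30 and 2 among 8 (Fisher's exact p 0.0398, adjusted p 1). Both differences rest on 4 intermediates or fewer in each pool. Cct5 intron 3 was fully or almost fully spliced by coSE in both pools, so its induced intermediates stood beside a coSE of 1.

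A list of 34 genes was taken beside the subunits: the prefoldin subunits that hand clients to CCT, cofactors of CCT and of tubulin folding, actin and tubulin, other known clients, and, as a separate chaperonin that does not work with CCT, the mitochondrial Hspd1 with its partner Hspe1. Of the 34, 28 were listed and 12 had introns with at least 10 reads in both pools, 34 introns in all. By Fisher's exact test with Benjamini-Hochberg adjustment over the 4403 introns, 5 of the 34 were called lower in the induced pool and 0 higher, where 1.25% of all introns were called lower and 0.363% higher. The 5 were in 3 client genes: introns 1, 2 and 3 of Rack1, a WD40 protein of the ribosome (0.930 to 0.469, 0.807 to 0.423 and 0.902 to 0.607; adjusted p 1.24e-05, 0.0252 and 0.0361), intron 4 of gamma-actin Actg1 (0.706 to 0.0769; adjusted p 0.0159) and intron 2 of the beta-tubulin Tubb5 (0.839 to 0.200; adjusted p 0.0337). None of 7 prefoldin and 3 cofactor introns was called by that test. The difference of the 34 introns had a median of 0, with 14 lower and 12 higher. The share of observations was lower in the induced pool for 18 of the 28 listed genes, Hspd1 and Hspe1 among them, and higher for 10, against 40.2% lower of the 1125 genes with at least 50 observations in both pools. Most of the 28 were below that depth, such as the prefoldin gene Pfdn6, with 12 and 1 observations, so these counts and that background do not cover genes of like depth. Hspd1 had 103 and 25 observations, 0.362 times the uninduced share, and Hspe1 had 58 and 17, 0.437 times. The genes of the list with at least 50 observations in both pools went both ways: Rack1 (773 and 152) was at 0.293 times its uninduced share, the tubulin cofactor Tbce (148 and 53) at 0.534, the prefoldin gene Pfdn5 (223 and 140) at 0.936, the tubulin cofactor Tbcd (76 and 82) at 1.61 and beta-actin Actb (154 and 203) at 1.96. The highest ratio that could be computed was that of the alpha-tubulin Tuba4a, at 15.4 on 13 and 134 observations.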

How the data were processed

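Per the submitters' processing notes, cutadapt, minimap2, SAMtools, bedtools and Bowtie and the builds mm10 and dm3 were used; their roles, how unspliced reads were merged, how intermediates were recognised and which runs were pooled are not given in the sources used here. Per the file headers, the first table holds deposited read counts, spliced and unspliced, per intron and condition. The second holds deposited counts of spliced reads and intermediates, the deposited fraction NIC, a deposited GC percent, and the splice site sequences printed above with their deposited score.

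coSE was computed as spliced over spliced plus unspliced reads, and NIC was checked to equal intermediates over intermediates plus spliced reads. Introns were placed on the GENCODE mouse release 21 annotation of GRCm38, 1-based, by adding 2 to the start and taking 1 from the end; 100% fell on annotated introns. Introns with at least 10 reads were summarised, and those with 10 in both pools were tested by a two-sided Fisher's exact test with Benjamini-Hochberg adjustment over all of them at a threshold of 0.05. Intervals are Wilson and Newcombe 95% intervals, and the limit for a count of 0 is 3 reads. Reads were not corrected for PCR duplicates here, so intervals cover counting error only. Python 3.11.15, pandas 2.3.3, SciPy 1.17.1, NumPy 2.4.6 and matplotlib 3.10.9 were used. The Fisher's exact test for coSE was checked on simulated reads with counting error only, at the depths of the 4403 introns. It called 23 of 100 simulated falls of 0.3 and 71 of 100 falls of 0.6, so many falls of the size seen here would be missed. Of the 20 samples, 12 (long reads of cells with an integrated globin gene, and PRO-seq) were not analysed here.

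The members, the partner and marker lists and the rules were chosen with earlier results of these data known. Introns named singly were, for each gene, the lowest and highest coSE in each pool at 10 reads or more, the 3 largest differences each way, unadjusted p under 0.05, coSE under 0.6, at least 3 intermediates, and the extreme splice site scores; further introns of Cct4, Cct8 and the other genes were named after their values were seen. Alternatives were other depth minima, a chi-square test, introns present in every spanning transcript, other averages and another denominator for NIC.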

Additional observations from a re-analysis of the deposited data

How the results depend on the processing

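No paired analysis was possible because the tables hold pools: a condition has 1 line per intron, with no value for a replicate. Nor could a replicate be left out. At a minimum of 20 reads 1 CCT intron, Cct5 intron 5, passed the threshold, among 7 tested, against 0 of 27 at 10 reads; fewer introns entered the adjustment. Over all introns, 36 passed without a minimum and 31 among introns in every spanning transcript, against 71; for NIC, 1 passed by the chi-square test and 0 over all reads of the intron, against 2. The uninduced coSE, a median of 0.905, was 0.882 as a mean and 0.891 with reads added without Cct5. The induced coSE, a median of 0.857, was 0.909 at 20 reads, 0.826 without a minimum, 0.785 with reads added, 0.802 as a mean and 0.769 with reads added without Cct5. The other 26 recomputed values were taken as unchanged under wide limits, a ratio for counts and a counting interval for medians and shares. Changes among them were not all small. All introns past the threshold went from 71 to 50 at a minimum of 5 reads. Lower CCT introns went from 74.1% to 57.1% at 20 reads, and lower CCT genes from 7 to 6 by the mean over introns. Alternatives without Cct5, the shares of lower introns and the counts of lower genes were chosen after seeing the data. No CCT intron was left for NIC at 20 reads in both pools. Depth limits all of these values: a CCT intron with 8 induced reads, the median, has a wide interval, and a coSE of 1 or a NIC of 0 means only that no such read was seen at that depth.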
